A study of Mus musculus with 4 samples.

Results

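The Notch pathway genes examined here are the ligands Jag1, Jag2 and Dll1, the receptors Notch1, Notch2 and Notch3, the DNA-binding factor Rbpj and the target genes Hes1 and Hey1, together with the name Herp2, measured in lenses of mice with a conditional knockout of the RNA-binding protein Celf1 in the lens. The members were chosen by name, as all probes whose symbol in the deposited normalized table is 1 of these 10 names. This gave 12 of the 45263 probes used, for 9 of the 10 names. No probe carries the symbol Herp2, which the same table gives as a synonym of Hey1. Of the 9 genes, 8 passed the detection filter, out of 11516 genes tested, and Rbpj did not.

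RNA of 1 lens at postnatal day 6 was hybridized to each of 4 arrays of the Illumina MouseWG-6 v2.0 BeadChip type. The 2 Celf1 cKO lenses (named A and B, n = 2) carried 1 germline Celf1 lacZKI allele, 1 conditional Celf1 allele with a floxed exon 5, and the Pax6GFPCre transgene, which drives Cre recombinase from a Pax6 promoter fragment active from the lens placode onward and is also active in the pancreas. The Control group (n = 2, replicates A and B) was Celf1 lacZKI/+, so all 4 lenses carried a lacZKI allele and none was fully wild type. The cKO mice came from a mix of C57BL/6 and FVB. The background of these Control mice is not stated separately, and sex is not stated.

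Notch signaling passes between touching cells. A ligand of the Jagged or Delta-like family on 1 cell binds a Notch receptor on its neighbour, the receptor is cut within the membrane by gamma-secretase, and the freed intracellular part joins Rbpj in the nucleus to switch on targets such as Hes1 and Hey1, which are themselves repressors of transcription. In the lens the pathway is known for the balance between dividing cells of the anterior epithelium and their differentiation into fiber cells, with Jag1 as the ligand on the fiber side. The pathway is also used in the vessels that surround the lens in newborn mice.

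Each member was read with probes of 50 bases, and a value holds for the stretch of transcript that the probe matches. All probe sequences below are taken from the deposited table, 5′ to 3′. The probes shown are those of Jag2 and of the receptor and target that came nearest to the threshold, with only the first 30 bases for Jag2 and Notch3.
Jag2 probe, from base 3971 of its transcript: tttttgtaaagtttccgcgtccgcacgcac
Notch3 probe, from base 7671: tagactcactgggaaaggggtcttgtctgc
Hes1 probe, from base 950: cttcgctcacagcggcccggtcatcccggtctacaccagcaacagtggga

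Rbpj is covered by 3 probes, of which a pair overlap in 29 bases, so that they are not independent readings. The shared stretch starts at base 218 of the transcript.
Rbpj shared stretch: actactcggagggcttgtccgcggaggag

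The deposited table places the Hes1 probe on chromosome 16 at 30067381 to 30067430, the Hey1 probe on chromosome 3 at 8663623 to 8663672, the Notch1 probe on chromosome 2 at 26313589 to 26313638, the Dll1 probe on chromosome 17 at 15505369 to 15505418 and the Notch3 probe on chromosome 17 at 32258060 to 32258109. No genome build is named for these positions. The 2 Notch2 probes lie 470 bases apart in the transcript but start 281952 bases apart on chromosome 3 in the table, so its positions may not all come from 1 build. The table places the Rbpj probes on chromosome 5 and gives no position for Jag1 or Jag2.

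Facts of the arrays touch every value. The targeted gene, Celf1, was reduced, with cKO minus Control at -1.43 ± 0.19 on the log2 scale (SE, limma adjusted p = 0.0099, or 0.056 without Control B), though it is not stated which exons its probes match. The cKO arrays were brighter, with 16261 and 16925 probes detected against 14542 and 14180 on the Control arrays, and this brightness cannot be told apart from genotype. Control B had the noisiest beads, with a median bead standard error of 7.26% of the signal against 4.36% to 4.40% on the other arrays. Xist, expressed from the inactive X chromosome, was higher in cKO lenses by at least 6.09-fold (adjusted p = 9.13e-04) and the Y-linked Ddx3y was reduced (log2 fold change -3.09 ± 0.55 SE, adjusted p = 0.020), although it was above background in all 4 lenses, at 6.81 and 4.82 log2 units in cKO lenses. The other tested Y-linked gene of the marker list, Uty, went the other way (0.29, adjusted p = 0.23). It was detected in the 2 cKO lenses but not in Control lenses, so it passed the filter only through the group where it was higher. With sex not stated, a difference in sex cannot be told apart from genotype. Markers of lens fiber cells were present at high signal, and Pax6, a defining gene of the lens epithelium, was above background on no array.

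A single member was called. Jag2 was called elevated in cKO lenses, though it passed the detection filter only through those lenses. None of the other 7 tested members passed the test. Calls required an adjusted p under 0.05 over all genes, a log2 fold change beyond 0.58 in size and a mean signal above 4.6 log2 units. The 1 call among 8 members (12.5%) stands beside 11.7% of all genes called in this comparison, 1342 of 11516, so that the members were called about as often as genes in general. The median log2 fold change of the 8 members was -0.0021, against 0.0097 over all genes, with 4 members higher and 4 lower in cKO lenses. The groups stood apart without overlap for 4 of the 8 members, Jag2, Notch2, Notch3 and Hes1, against 62.3% of all genes.

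**Figure D1:**
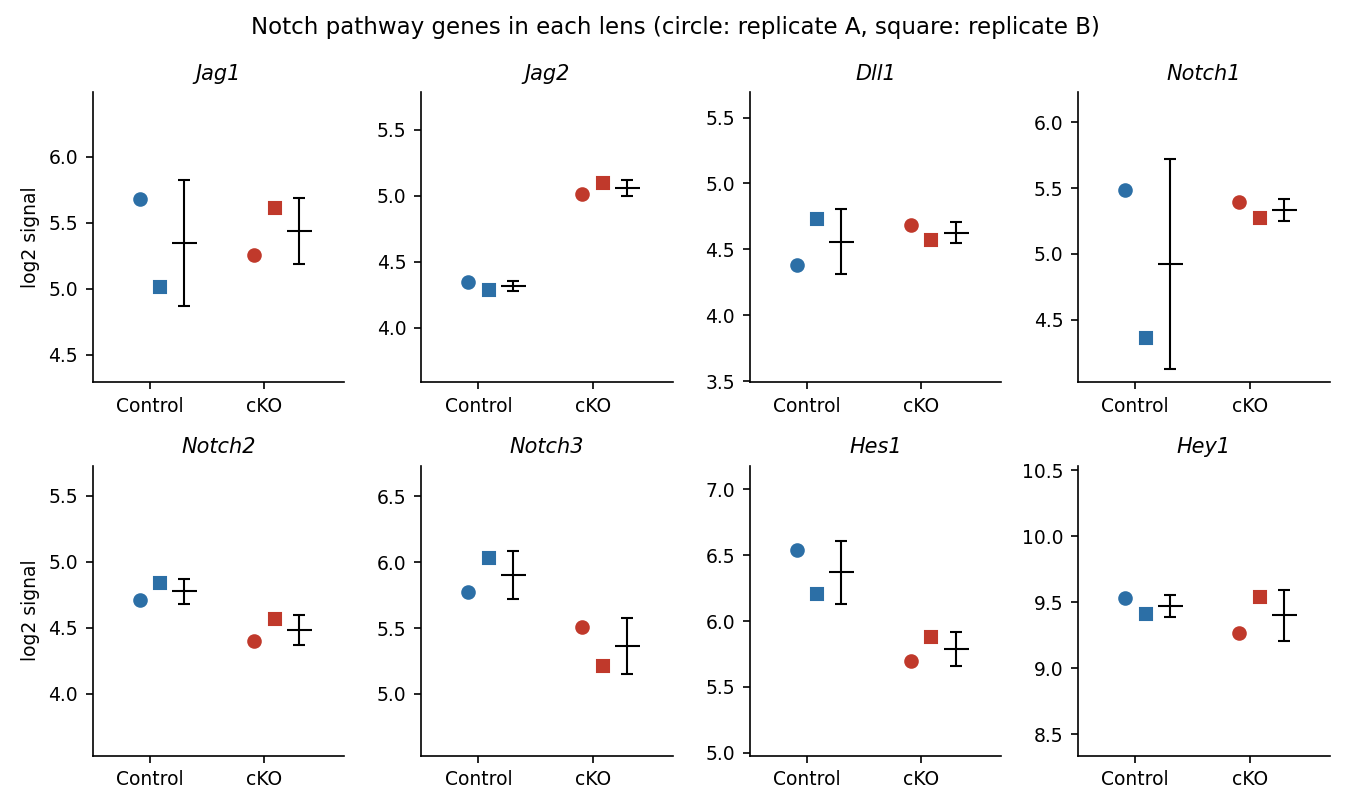
Log2 signal (vertical axis, background-corrected and quantile normalized) of the 8 tested members in each Control lens (blue) and cKO lens (red), with circles for replicate A and squares for replicate B. Black bars give the group mean and SD (n = 2), and all panels span the same number of log2 units; Jag2 is higher in both cKO lenses, while Notch3 and Hes1 are lower in both after quantile normalization.

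Among the ligands, Jag2, which encodes a Jagged-family ligand, had a log2 signal of 5.02 in cKO A and 5.10 in cKO B, against 4.34 in Control A and 4.29 in Control B. Both cKO values lay above both Control values, with an SD of 0.06 in cKO lenses and 0.04 in Control lenses, where the latter is the spread of background signal. Both cKO lenses had Jag2 above background, whereas its detection p-values were 0.36432 and 0.55128 in the Control lenses. Jag2 therefore passed the filter only through the group in which it was high, so that the direction of its difference was fixed by the filter. Its level in Control lenses has only an upper limit, and the cKO lenses were at least 1.25-fold higher. The log2 fold change of the fit was 0.74 ± 0.14 (SE, 95% interval 0.42 to 1.06, limma adjusted p = 0.021). It sets the cKO lenses against background signal, so its interval and p do not measure a difference between detected levels. Before any normalization the intensities were 65 and 70.5 in cKO lenses and 47 and 40 in Control lenses, with bead standard errors of 1.89 to 3.47. On these brighter arrays the unnormalized signals of Dll1, Notch1 and Hey1 were likewise higher in both cKO lenses than in both Control lenses, although none of the 3 was called after normalization.

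The Jag2 call rested on the background treatment and on the arrays included. With all 4 arrays, the log2 fold change was 0.47 without background correction and 0.32 with an offset of 50, both under the fold threshold, and 0.19 (adjusted p = 0.37) with array medians matched over the probes that all 4 arrays detected. The call was also lost when the change was tested against the fold threshold itself. Without Control B the adjusted p was 0.072, and without either cKO lens Jag2 no longer passed the filter.

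Jag1, the Jagged ligand known from lens fiber differentiation, did not pass the test. It read 5.26 log2 units in cKO A, 5.61 in cKO B, 5.68 in Control A and 5.01 in Control B. Both cKO values fell between the Control values. Jag1 differed by 0.09 ± 0.24 (log2, SE, adjusted p = 0.83), and its 95% interval of -0.49 to 0.67 leaves room for changes past the fold threshold only on the higher side. Leaving out 1 lens at a time gave values from -0.26 to 0.44, so the sign was not settled.

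Dll1, a Delta-like ligand, was near background on all arrays. Its log2 signal was 4.69 and 4.57 in cKO lenses and 4.38 and 4.73 in Control lenses, with overlap between the groups. Detection p-values were 0.03098 and 0.04594 in cKO lenses, just inside the limit of 0.05, and 0.25534 and 0.05342 in Control lenses, outside it. Dll1 differed by 0.07 ± 0.17 (log2, SE, 95% interval -0.32 to 0.46, adjusted p = 0.81). It stood at -0.54 with medians matched over detected probes and at -0.11 without Control A, so the sign was not settled. The signal allows no bound on a fold change for Dll1.

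None of the receptors was called. Notch1 had a log2 signal of 5.39 in cKO A, 5.27 in cKO B and 5.48 in Control A, and of 4.36 in Control B. A single lens stood apart, since Control B lay 1.12 log2 units under Control A while the other 3 lenses were within 0.21. The probe was not above background in Control B (detection p-value 0.33227), where it was read on 23 beads against 33 to 37 on the other arrays. Notch1 differed by 0.41 ± 0.33 (log2, SE, 95% interval -0.38 to 1.19, adjusted p = 0.44). It was -0.16 without Control B and 1.02 (adjusted p = 0.028) without Control A, so the sign and the call depended on which Control lens was kept.

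Notch2 has 2 probes, and the 1 that passed the filter did so on 1 cKO lens and 1 Control lens. Its log2 signal was 4.40 and 4.57 in cKO lenses and 4.71 and 4.84 in Control lenses. The groups did not overlap, but all of these values lay near background, with detection p-values of 0.03419 to 0.18803. This probe differed by -0.29 ± 0.14 (log2, SE, 95% interval -0.63 to 0.05, adjusted p = 0.21). Under the alternatives with all samples, Notch2 ran from -0.88 with medians matched over detected probes to -0.12 with no normalization. It was called under none of them. The other Notch2 probe, from base 7381 of the transcript, was above background on no array and had log2 signals of 4.31 to 4.37.

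Notch3, a receptor best known from the mural cells of vessels, was above background in all 4 lenses. Its log2 signal was 5.51 in cKO A and 5.21 in cKO B, against 5.78 in Control A and 6.03 in Control B. Both cKO lenses lay under both Control lenses. The log2 fold change was -0.54 ± 0.17 (SE, 95% interval -0.95 to -0.14), with an unadjusted p of 0.015 and an adjusted p of 0.079, so Notch3 was not called; 31.9% of all genes had an unadjusted p under 0.05. The unnormalized intensities did not separate the groups, at 82.7 and 74.6 in cKO lenses and 78.7 and 72 in Control lenses. The value was -0.72 (adjusted p = 0.025) with array medians matched over the probes that all 4 arrays detected, and 0.0039 with the arrays only set to the same median over all probes, a scaling under which the median of all genes itself stood at 0.53.

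Rbpj, the DNA-binding factor on which the pathway converges, was above background with 0 of its 3 probes on any array. Its unnormalized intensities were 33.7 to 50.4, with detection p-values from 0.15171 to 0.98504. A limit of the probes and a low level of the transcript cannot be told apart here, so these values do not give a level of the transcript. With the detection filter left out, the log2 fold change was -0.02 (adjusted p = 0.92).

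**Figure D2:**
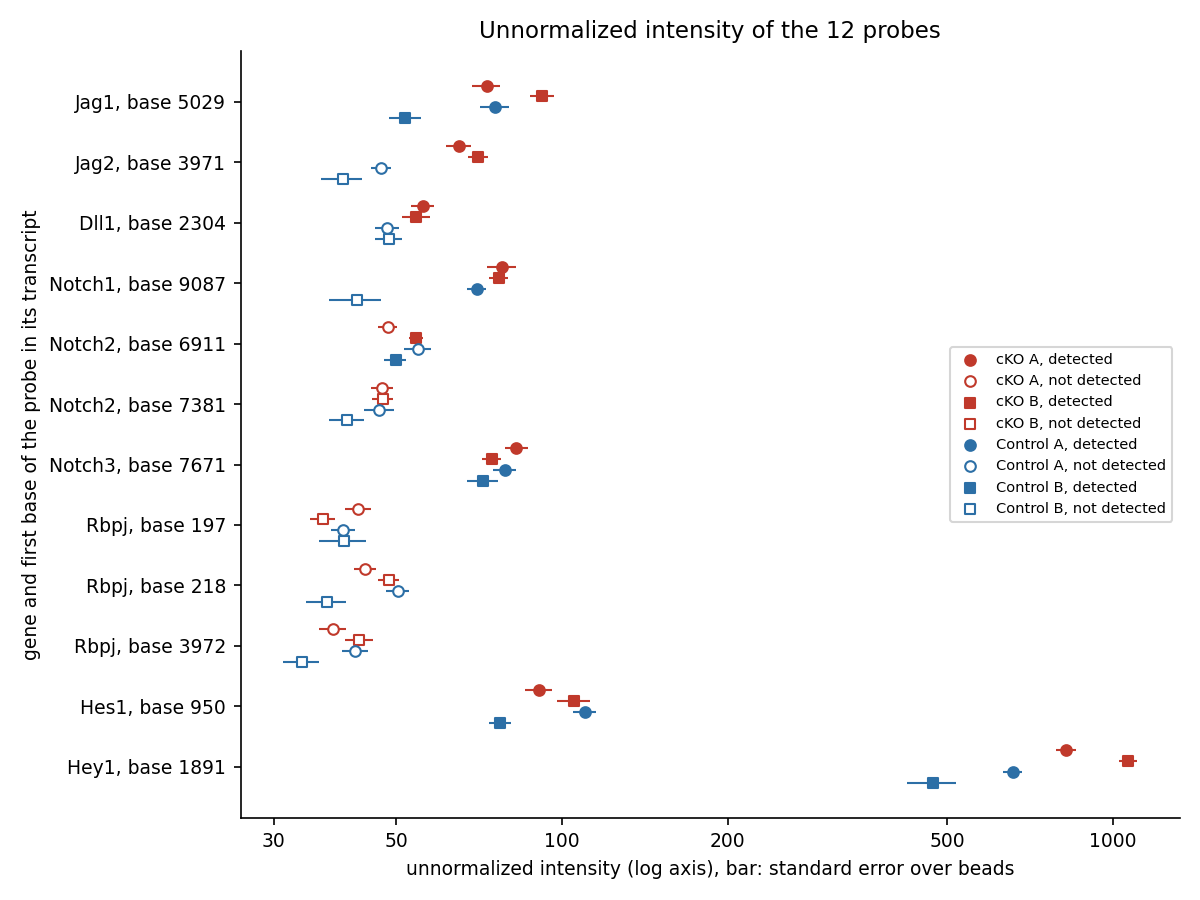
Unnormalized intensity (horizontal log axis, arbitrary fluorescence units) of the 12 member probes, named by gene and first base in the transcript, on the 4 arrays; bars give the standard error over beads and open symbols mark arrays on which the probe was not above background. Hey1, Jag2, Notch1 and Dll1 read higher on both cKO arrays than on both Control arrays, Hes1 and Notch3 overlap between the groups, and the 3 Rbpj probes are open on every array.

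Of the targets, Hes1, a repressor of the basic helix-loop-helix class that is among the most direct readouts of Notch activity, came nearest to the threshold. Its log2 signal was 5.70 in cKO A and 5.88 in cKO B, against 6.54 in Control A and 6.20 in Control B. The cKO lenses both lay under the Control lenses, and the probe was above background on all arrays. The log2 fold change was -0.58 ± 0.17 (SE, 95% interval -0.98 to -0.18, unadjusted p = 0.011, adjusted p = 0.064), past the fold threshold but not past the adjusted p. The unnormalized intensities overlapped, with 90.9 and 105.4 in cKO lenses between 77.3 in Control B and 110 in Control A. Where only genes with probes detected in all 4 samples were tested, which lowers the number of genes to 9005, the same values gave an adjusted p of 0.049 and Hes1 was called. The difference turned to 0.048 with the arrays only set to the same median and to 0.086 with no normalization, and neither was called.

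Hey1, the Hairy-related repressor that the table also calls Herp2, gave similar values in both groups after normalization. On the log2 scale it read 9.26 and 9.54 in cKO lenses and 9.53 and 9.41 in Control lenses, so the groups overlapped. Between the groups the log2 difference was -0.07 ± 0.16 (SE, adjusted p = 0.78), and its 95% interval of -0.44 to 0.29 lies within the fold threshold on both sides. The unnormalized intensities were apart, at 823.3 and 1065.2 in cKO lenses and 658.4 and 471.5 in Control lenses. Hey1 was accordingly called elevated where the arrays were only set to the same median (0.74, adjusted p = 0.012) or not normalized (0.78, adjusted p = 0.0066). Under those same settings 97.3% and 97.7% of all called genes were elevated.

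The members can also be read relative to the median of all genes, which removes a shift shared by all genes. On that scale the log2 fold change of Hes1 lay between -0.61 and -0.39 and that of Notch3 between -0.57 and -0.33 under the 16 alternatives that used all samples. Many of these change the filter or the test and leave the fold change as it was, and the 3 other scalings share a single relative value, -0.48 for Hes1 and -0.53 for Notch3, so that few of them could have turned the sign. The relative value of Hey1 ran from -0.10 to 0.21 and changed sign.

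**Figure D3:**
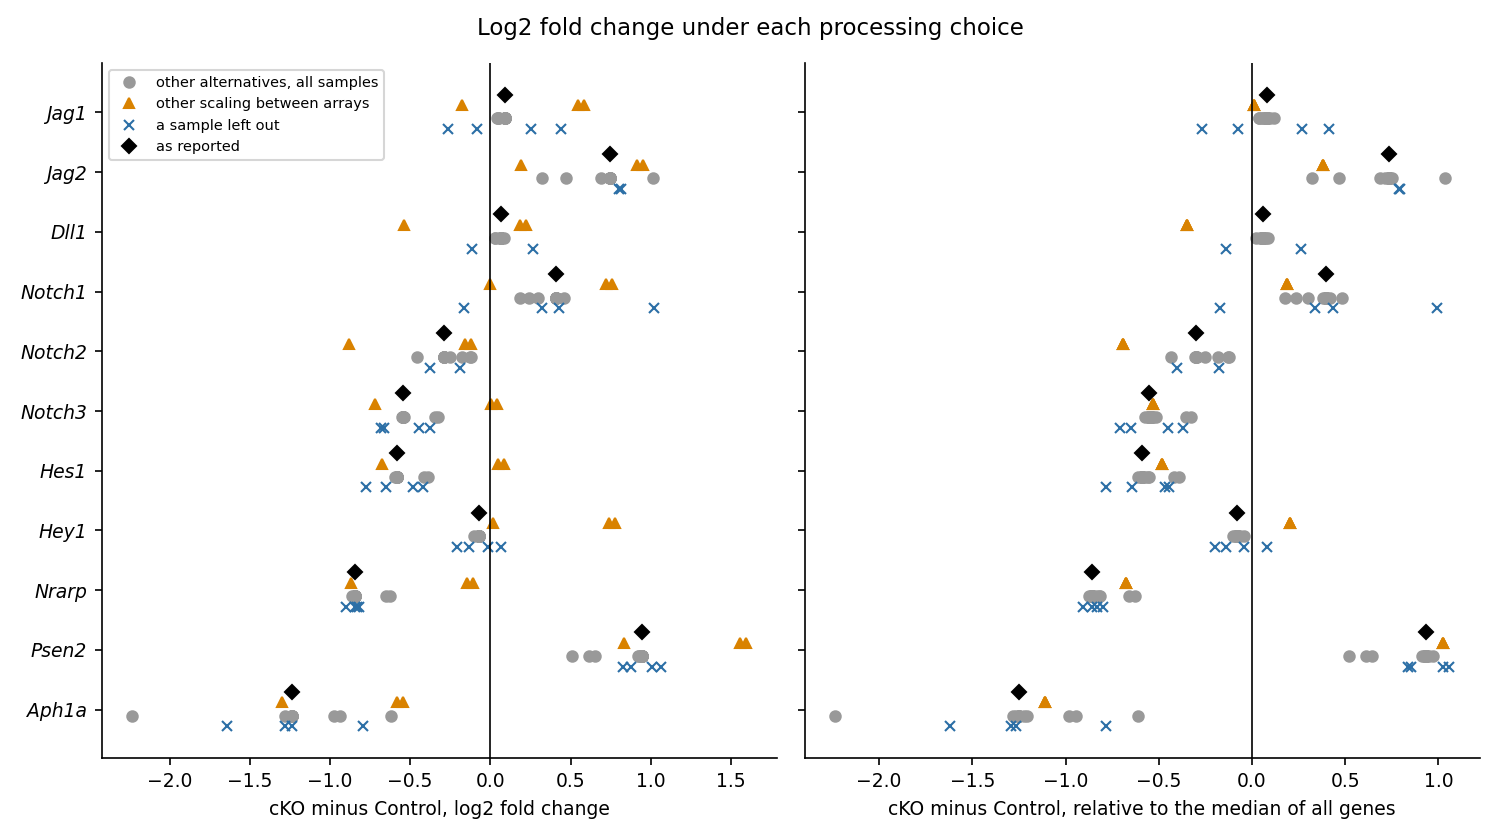
Log2 fold change (cKO minus Control) of the 8 tested members and of Nrarp, Psen2 and Aph1a under each processing choice, as computed (left) and relative to the median of all genes (right). Diamonds are the reported values, triangles the 3 other scalings between arrays, crosses the fits without 1 lens and circles the remaining alternatives; Hes1 and Notch3 cross 0 on the left but not on the right.

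A wider list of 78 pathway genes, sorted by role, was set beside the members. It holds all 9 members with a probe. Of the 78 genes, 75 had a probe, 56 were tested and 13 were above background on no array. There were 7 calls among the 56 (12.5%), against 11.7% of all genes, with 3 genes elevated (6.02% of all genes were called elevated) and 4 reduced (5.64% of all genes). The median log2 fold change of the 56 was -0.02, with 27 higher and 29 lower, and 30 of the 56 had groups that did not overlap, where 62.3% of all genes did not. Without background correction the 3 genes called were Aph1a, Nrarp and Psen2.

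Among the tested ligands of that list, Jag2 was elevated and Dlk2 was reduced. Dlk2, a Delta-like homologue, had a log2 signal of 4.96 and 4.94 in cKO lenses against 5.56 and 6.12 in Control lenses. The change of -0.89 ± 0.20 (log2, SE, adjusted p = 0.035) was called without Control A and in no other fit that left out 1 lens (adjusted p from 0.087 to 0.19). With all samples the call was lost under 6 of 16 alternatives, with values of -0.54 without background correction, -0.50 with an offset of 50, -0.43 with the arrays only set to the same median and -0.39 with no normalization. The other 4 of the 6 tested ligands were not called. All 4 receptors were tested and 0 were called, with Notch3 at the lowest adjusted p.

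Among genes that prepare or cut the receptor, 1 of 4 tested sugar transferases and 2 of 7 tested cleavage genes were called, where 11.7% of all genes were. Pofut1, which attaches the O-fucose that Notch needs for ligand binding, was reduced, with log2 signals of 5.79 and 5.59 in cKO lenses and 6.34 and 6.44 in Control lenses (log2 fold change -0.70 ± 0.15 SE, adjusted p = 0.029). The call held without Control A and was lost without any other lens (adjusted p from 0.078 to 0.22). With all samples it was lost under 7 of 15 alternatives, among them the brightest probe alone (adjusted p = 0.061) and the arrays only set to the same median (-0.075). Pofut1 was the single call among 4 tested sugar transferases. Of its 3 probes 2 passed the filter, and 1 of these was called when each was tested alone. Psen2, a catalytic subunit of gamma-secretase, was elevated, at 6.37 and 6.55 in cKO lenses and 5.44 and 5.59 in Control lenses. The difference was 0.94 ± 0.15 (log2, SE, adjusted p = 0.014), from 1 of 2 probes. It was not called without cKO B (0.83) or without Control B (1.06). With all samples the call was lost with no detection filter (0.51, adjusted p = 0.055) and against the fold threshold itself. Aph1a, another gamma-secretase subunit, was reduced, at 6.38 and 5.51 against 7.20 and 7.17, a difference of -1.24 ± 0.27 (log2, SE, adjusted p = 0.032). Of 4 Aph1a probes 2 passed the filter, and these disagreed, since 1 gave -2.23 and the other -0.24. Of the fits that left out 1 lens, only the one without cKO A kept the call. The value was -1.64 without cKO A and -0.79 without cKO B. With all samples the Aph1a call was also lost at -0.58 with the arrays only set to the same median, at -0.54 with no normalization, at -0.62 with no detection filter and against the fold threshold itself. The other 5 of the 7 tested genes of receptor cleavage were not called. For Furin, a protease that cuts the receptor precursor, the 2 of 3 probes that passed the filter disagreed (-0.78, called alone, and -0.12). Furin was called reduced under 4 alternatives that changed the detection filter or the probe used. It was also called reduced with medians matched over detected probes.

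Mib1, the ubiquitin ligase that starts ligand endocytosis in the signal-sending cell, was elevated, at 5.41 and 5.64 in cKO lenses against 4.86 and 4.74 in Control lenses. Mib1 was above background in 1 of the 2 Control lenses, and the log2 difference was 0.72 ± 0.15 (SE, adjusted p = 0.030). Of the fits that left out 1 lens, the one without Control A called Mib1 (adjusted p from 0.075 to 0.24 in the others). With all samples the call was lost under 5 of 15 alternatives, with values of 0.41 without background correction, 0.38 with an offset of 50 and 0.37 with medians matched over detected probes. The other 4 tested genes of ligand endocytosis were not called. None of the 8 tested genes of receptor turnover was called, with Nedd4, a ubiquitin ligase, at the lowest adjusted p (log2 fold change -0.59, adjusted p = 0.082). Nedd4 stood at -0.35 without Control B and was called at -0.83 (adjusted p = 0.035) without Control A. The nuclear complex had 0 calls among 6 tested genes, all 6 with values under 0 and a median of -0.24, and its lowest adjusted p was that of Snw1 (-0.42, adjusted p = 0.090). Maml2 was called elevated with the arrays only set to the same median, where 47% of all genes were called. With medians matched over the probes that all 4 arrays detected, Crebbp and Snw1 (-0.94, adjusted p = 0.0095) were called reduced. Under that setting 23.4% of all genes were called, and 24.9% of those were elevated. In the reported fit, 48.9% of all genes tested had values under 0. The 10 tested corepressors had 0 calls and values on both sides of 0, with Tle1 at 0.54 (adjusted p = 0.070). Tle1 was called at 0.67 with its brightest probe alone. With the arrays only set to the same median, 6 of the 10 were called, Cir1, Ctbp2, Hdac2, Ncor1, Spen and Tle1. Under that setting 47% of all genes were called and the median of all genes stood at 0.53. Tle3 was called reduced with medians matched over detected probes, where 23.4% of all genes were called.

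Nrarp, a target gene whose product limits Notch signaling by binding the receptor's intracellular part, was the single target called. Its log2 signal was 6.15 and 6.17 in cKO lenses and 7.03 and 6.97 in Control lenses. The groups did not overlap, which held for 62.3% of all genes. The SDs of 0.02 and 0.04 each come from 2 arrays and are a poor measure of spread. Nrarp differed by -0.85 ± 0.13 (log2, SE, 95% interval -1.16 to -0.53, adjusted p = 0.014). The call held without Control A, and the adjusted p was 0.068 when cKO A was left out, 0.10 when cKO B was, and 0.060 when Control B was, with values of -0.90 to -0.82 in all 4 of these fits. All 5 tested targets, Nrarp, Hes1, Hes5, Hey1 and Ccnd1, had values under 0 (median -0.10), but with the arrays only set to the same median Hes1 stood above 0 and Hey1 and Ccnd1 were called elevated. Under that setting Nrarp stood at -0.14 and was not called. Relative to the median of all genes it lay between -0.88 and -0.63 under the 16 alternatives with all samples. Many of these left the fold change of Nrarp at -0.85. The same median, no normalization and medians matched over detected probes share a single relative value, -0.68. Few of the alternatives could therefore have moved the relative value far. Hes6, which opposes Hes1, had a log2 fold change of 0.40 and was not called (adjusted p = 0.13). It was called at 1.06 with the arrays only set to the same median and at 1.10 with no normalization.

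**Figure D4:**
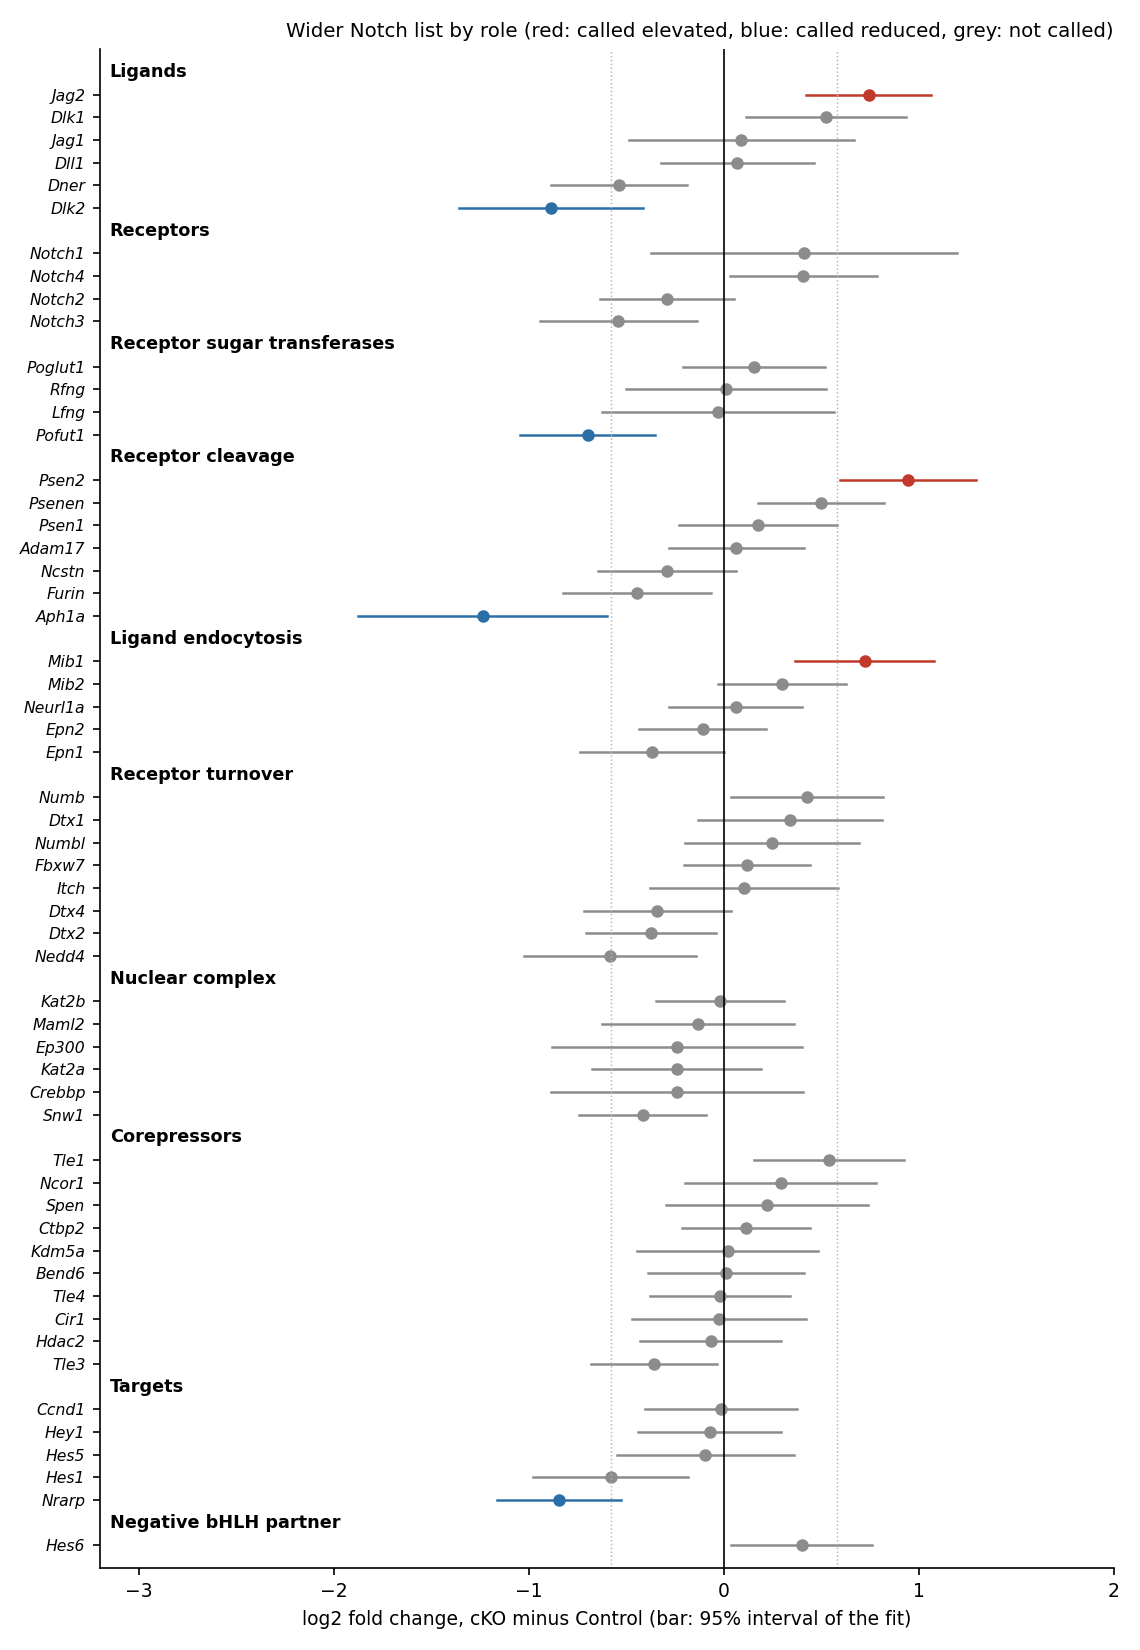
Log2 fold change (cKO minus Control, horizontal axis) with its 95% interval for the 56 tested genes of the wider Notch list, grouped by role; red marks genes called elevated, blue genes called reduced and grey genes not called, and dotted lines mark the fold threshold of 0.58. The 3 elevated and 4 reduced genes are spread over 5 of the 10 roles.

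Promoters were read from a RefSeq table of assembly GRCm38.p6, in windows of 250 bases before to 50 bases after each gene's start, and searched on both strands for GTGGGAA, the core letters bound by Rbpj, and for CACGTG, a site of the E-box type that Hey and related repressors can bind. GTGGGAA occurred in 6.38% and CACGTG in 7.15% of all 32851 promoters. The search covered the ligands, the receptors and Rbpj, which are 7 of the 9 members with a probe, and not the targets Hes1 and Hey1. Of the 9 promoters of these 7 genes, 0 held either motif. In the wider list, 8 of 83 promoters (9.64%) held GTGGGAA and 10 of 83 (12%) held CACGTG. The promoter of Nrarp is shown because it is the called target, and it held CACGTG once and GTGGGAA 0 times. A match is a match of letters and does not show binding.
Nrarp, 250 bases before the gene start, GRCm38.p6, chr2:25180508-25180757, plus strand, with CACGTG in capitals: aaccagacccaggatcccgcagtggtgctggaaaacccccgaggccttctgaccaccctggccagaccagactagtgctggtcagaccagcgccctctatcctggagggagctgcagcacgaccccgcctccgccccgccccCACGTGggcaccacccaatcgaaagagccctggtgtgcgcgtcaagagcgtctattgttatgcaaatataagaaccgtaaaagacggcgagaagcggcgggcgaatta

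Markers of other cell types were read on the same arrays, because whole lenses were used and fewer cells of a type and less RNA per cell cannot be told apart. For the lens epithelium, in which Notch receptors and Hes1 are known to be used, 5 of 6 markers were tested, all 5 had values under 0, and Foxe3 and Pdpn were reduced, where 48.9% of all genes had values under 0 and 5.64% were called reduced. Their summed linear signal after normalization was 1495 to 1508 in cKO lenses and 2075 to 2356 in Control lenses. This sum was lower in both cKO lenses, as was the called target Nrarp and as were the values of Hes1 and Notch3, which were not called. The part of the epithelial markers in those values was not tested.

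For endothelium, which uses Jag2 and Notch receptors in many tissues, 7 of 8 markers were tested, 4 with values above 0 and 3 under 0. Emcn and Flt1 were elevated, against 6.02% of all genes, while Kdr stood at -0.59 (adjusted p = 0.052), Tek at -0.26 and Pecam1 at -0.06, none of them called. The summed signal was 523 to 526 in cKO lenses and 358 to 394 in Control lenses, and none of the 8 markers was at background on every array. Its part in the Jag2 value was not tested. For mural cells, which express Notch3 in vessels, 5 of 6 markers were tested, 0 were called, and the summed signal was 1373 to 3759 in cKO lenses and 2177 to 2297 in Control lenses, a range that did not separate the groups. Of 9 lens fiber markers, all were tested and 2, Bfsp2 and Dnase2b, were reduced (5.64% of all genes were), with sums of 145488 to 151777 in cKO lenses and 165159 to 167406 in Control lenses. Of 6 macrophage markers 3 were tested, with sums of 86.0 to 87.9 in cKO lenses against 75.2 to 78.7. C1qb was elevated but passed the filter only through the cKO lenses, and the other tested pair, Csf1r at -0.11 and Aif1 at -0.06, was not called. Of 4 blood markers 2 were tested with 0 called, and 0 of 8 retina and 0 of 5 pigment cell markers passed the filter.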

How the data were processed

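Intensity values per probe were deposited in unnormalized and in rank-invariant normalized form, as the scanner software (GSGX 1.9.0) wrote them, along with the number of beads and their standard error. The deposited detection p-value ranks a probe against negative control beads. The lens RNA was of postnatal day 6, with 1 lens per biological replicate. The unnormalized table held 18 lines with shifted cells, which were left out (45263 probes used), and 44 symbols that had turned into dates were restored. Probes were assigned to genes by a RefSeq table of GRCm38.p6, where the Entrez identifier placed 29586, the accession 2759, the current symbol 2214 and a former symbol 2370, while 8334 kept the file's symbol.

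Unnormalized intensity was corrected for background by the neqc method (limma 3.58.1 under R 4.3.3), with negative controls inferred from the deposited detection p-values and an offset of 16, put on the log2 scale and quantile normalized. The filter required detection (p-value under 0.05) on 2 or more arrays, and retained probes of a gene were averaged. Groups were compared with lmFit and eBayes, two-sided, with Benjamini-Hochberg adjustment over 11516 genes. The study's fold, adjusted p and minimum signal thresholds were used. The authors used edgeR, a count model, which was not applied because the values are intensities. A bound ("at least N-fold") sets the brighter group's mean against the mean, over the dimmer group's arrays, of whichever is higher, the lowest detected signal or the value of the gene itself. The fit was also run on simulated data with independent noise, no detection filter and no brightness difference between arrays. Its outcome is not given here, and it cannot speak to those features. Tables were read with pandas (version 2.3.3, Python version 3.11.15).

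The members and gene lists were chosen with earlier results of these data known. Genes named are all members, Celf1, Xist, Ddx3y, the called genes of the wider list and the gene of the lowest adjusted p in each role. Hes5, Ccnd1, Maml2, Crebbp, Furin, Tle3, the corepressors called under another scaling and the marker genes named were added after their values were seen. With 2 arrays a group, the smallest exact permutation p is 0.333, and the number of arrays limits the precision. Alternatives covered the table used, background, scaling, filters, several probes, variance model, fold threshold, replicate letter as a block, and each sample left out.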

Additional observations from a re-analysis of the deposited data

How the results depend on the processing

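Over all genes, 1342 were called as reported, against 789 with an offset of 50, 207 with no detection filter, 83 with treat against the fold threshold, 5417 with the same median for each array (97.3% elevated), 5789 with no normalization between arrays (97.7%) and 2692 with medians matched over the probes that all 4 arrays detected (24.9%), a setting chosen after seeing the data, against 51.6% elevated as reported; these 3 scalings moved the median of all genes to 0.53, 0.57 and -0.19. Without 1 sample the count ran from 163 (without cKO B) to 1356, with 171 without Control B and 594 without cKO A. Among the members 1 was called, against 0 with no background correction, an offset of 50 or treat, 3 with the same median, 4 with no normalization between arrays, 2 with medians matched over detected probes, and 0 to 2 without 1 sample. In the wider list 7 were called, against 3 with no background correction, 3 with an offset of 50, 22 with the same median, 25 with no normalization, 14 with medians matched over detected probes, 2 with no detection filter, 0 with treat, and 0 to 8 without 1 sample.

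With the same median for each array and with no normalization, Hes1 stood at 0.048 and 0.086, Notch3 at 0.0039 and 0.042, Hey1 at 0.74 and 0.78, Nedd4 at 0.19 and 0.23, and Notch1 was called at 0.72 and 0.76; Jag1 was called at 0.58 with no normalization. With medians matched over detected probes, Hes1 was called at -0.67 and Notch3 at -0.72, while Hey1 stood at 0.017, Jag1 at -0.18, Notch1 at -0.00025, Dll1 at -0.54, Jag2 at 0.19 and Notch2 at -0.88 (adjusted p = 0.011, not called because its mean signal was under the minimum). Jag2 also lost its call at 0.47 with no background correction, at 0.32 with an offset of 50 and at 0.74 with treat. Hes1 was called at -0.58 when genes had to be detected in all 4 samples, where fewer genes were tested. For the other changes the cause was not tested.

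Without 1 sample, values ran from 0.80 to 0.81 for Jag2 (2 fits), -0.26 to 0.44 for Jag1, -0.11 to 0.27 for Dll1 (2 fits), -0.16 to 1.02 for Notch1, -0.38 to -0.19 for Notch2 (2 fits), -0.68 to -0.38 for Notch3, -0.77 to -0.42 for Hes1 and -0.21 to 0.065 for Hey1. Nrarp, Mib1, Dlk2 and Pofut1 were called only without Control A, Aph1a only without cKO A, and Psen2 without cKO A or Control A; a lone sample is there assumed to vary like the other group. The replicate letters are not said to pair samples, and the A minus B differences of the groups had a correlation of -0.01 across genes; with the replicate letter as a block 1675 genes were called, with 1 member (Jag2) and the same 7 genes of the wider list. A slide block was not run, since the slide is not given in the sources used here.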
